A study of Mus musculus with 19 samples.

Results

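The hypergravity response of bone marrow-derived macrophages (BMDM) was followed from about 1 week to about 3 weeks, and the difference between both responses was measured for every gene. All 9 BMDM libraries of the series entered, out of 19 libraries in all. Bone marrow came from C57BL/6 mice, and the marrow cells were cultured with M-CSF, the cytokine that drives precursors to become macrophages. Hypergravity animals had been spun at 15 G in sessions of 15 min, and control animals are listed at 0 G with ordinary feeding. The 4 groups were 3 control libraries with no duration in their labels, 2 libraries after 1 week at 15 G, 2 control libraries of the 3 week set, and 2 libraries after 3 weeks at 15 G. The undated controls were paired with the 1 week animals on the strength of their name pattern alone, so duration and set cannot be told apart. No source used here states if replicates are different animals, different cultures or pools. p-values therefore measure the spread between these libraries, which may be technical.

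Macrophages answer microbes, tissue damage and cytokines by switching on cytokine, chemokine and enzyme genes through the transcription factors NF-kB, AP-1 and the interferon regulatory factors. The same factors induce their own inhibitors, and strong activation also shifts cells toward glycolysis and away from division. Macrophage precursors are also the cells that fuse into bone-resorbing osteoclasts when the cytokine RANKL is present, and the series title ties hypergravity to that process and to the UPR (unfolded protein response), by which cells adjust the endoplasmic reticulum (ER) when proteins misfold.

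Library totals ran from 17.21 to 33.02 M counts (1e6). The macrophage markers Lyz2, Cd68, Csf1r, Adgre1, Itgam, Fcgr1 and Mertk were present in all 9 libraries. Control replicate 3 stood apart: counts of the other replicate pairs differed by 5.097 to 12.519 times the counting variance, whereas its pairs reached 34.661 and 64.389. It also held the highest summed levels of neutrophil (906.9 CPM, counts per 1e6 counts of the library) and of matrix and stromal markers (522.5 CPM). Mitochondrially encoded genes took 1.37 to 1.40% of counts in the undated controls, 0.784 to 0.786% after 1 week at 15 G, 1.56 to 1.61% in the 3 week controls and 1.79 to 1.85% after 3 weeks. The part of this shift in the results below was not tested.

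The 1 week response had almost entirely gone from the 3 week set. With edgeR's quasi-likelihood test and a Benjamini-Hochberg adjusted p below 0.05, 8494 of 13842 genes (61.4%) were called between 15 G and control at 1 week, against 59 genes (0.426%) at 3 weeks. All 59 were higher under hypergravity, and none of the 13842 genes was called lower, although 593 genes in either direction had an unadjusted p below 0.05 where a uniform spread of p-values gives 692.1. DESeq2 called 94 genes at 3 weeks, 6 of them lower. The count of 59 depends on single libraries, with 138 calls (17 lower) without control replicate 3, 37 and 35 without replicate 1 or 2 of the 3 week controls, and 37 without replicate 1 of the 3 week hypergravity group.

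The response difference, defined as the 3 week log2 fold change minus the 1 week log2 fold change, was called for 6008 genes (43.4%), 3037 of them positive (21.9%) and 2971 negative (21.5%). When libraries were scaled by their totals alone, the median gene moved from 0.016 to 0.24 and the positive share of calls from 50.55 to 65.25%. Of the 6008 genes, 5945 had been called at 1 week, and in 5944 the difference ran against the 1 week response. A direct comparison of both hypergravity groups, which uses no control, called 8067 genes (58.3%), and 5710 of the 6008 genes (95.04%) were called there with the same sign. This comparison is a term of the response difference and uses the same hypergravity libraries and fit, so that agreement is not independent. The difference exceeded 1 on the log2 scale in 3642 genes and 3 in 753 genes.

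Genes were then placed in classes by their 3 calls. In 5896 genes, here called faded, the 1 week response was called, the difference was called against it, and no 3 week response was called. Of these, 2895 had been higher at 1 week, with a median log2 response of 1.13 at 1 week and 0.01 at 3 weeks, and 3001 had been lower, with medians of -1.23 and 0.01. A further 47 genes were called at both times with a smaller 3 week response. In 11 genes both responses were called in the same direction and the difference was not, and no gene was called at both times with a larger response at 3 weeks. Scd1 was called in opposite directions. In 1 gene, Gm38514, named after its values were seen, the 1 week response (log2 1.67) and a difference in the same direction (4.05, adjusted p = 0.0445) were called and the 3 week response was not (adjusted p = 0.173). Its 3 week controls were at 0, and it had at most 0.727 CPM in any library, so that fitted difference is not a size. Another 2538 genes called at 1 week were called neither at 3 weeks nor for the difference, so for them the data do not decide between fading and persisting.

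**Figure D1:**
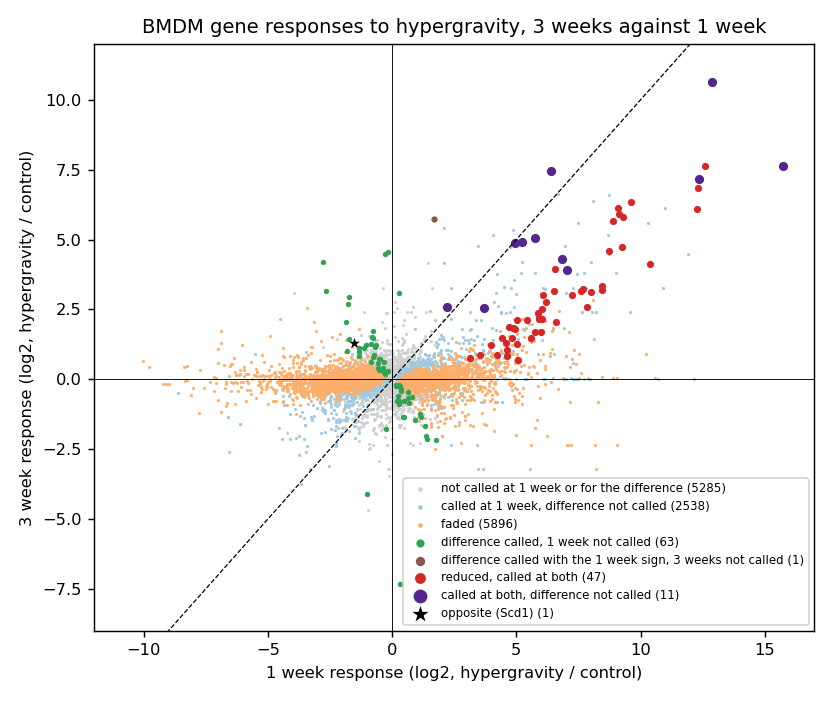
Each point is 1 of 13842 genes, with the 1 week response on the x axis and the 3 week response on the y axis, both as log2 of hypergravity over control; colours mark the classes and the dashed line marks equal responses. The 5896 faded genes lie along the horizontal axis, whereas the 47 reduced genes and the 11 genes with no called difference lie at the upper right; fitted values of genes at 0 in a control group depend on the prior count and are no measure of size.

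How much was left at 3 weeks went with the direction and size of the 1 week response. Among the 306 genes raised by more than 4 on the log2 scale at 1 week, the median fell from 5.34 at 1 week to 0.86 at 3 weeks (quartiles 0.04 to 2.39), and 53 of them were called at 3 weeks. In the 646 genes raised by 2 to 4 the medians were 2.64 and 0.13, with 5 called, and in the 1186 genes raised by 1 to 2 they were 1.37 and 0.02, with none called. On the other side, the 200 genes lowered by more than 4 had medians of -5.02 and -0.05, and the 784 genes lowered by 2 to 4 had -2.64 and -0.10, with none called at 3 weeks. The asymmetry is a description, since the bins were cut on the 1 week values. Across the 8494 genes called at 1 week, which are not independent of each other and share their libraries, the responses at both times had a Pearson r of 0.378 and a Spearman rho of 0.23.

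**Figure D2:**
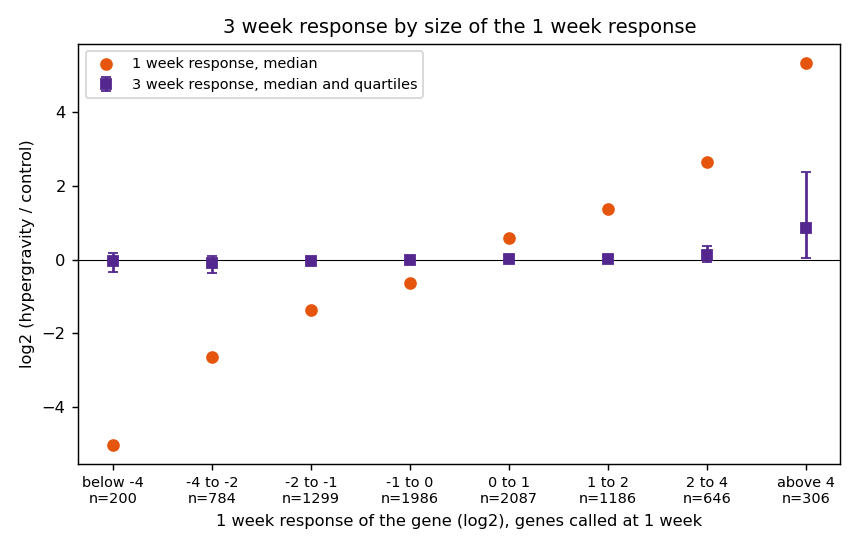
Median log2 response (y axis) of the genes called at 1 week, binned by the size of the 1 week response (x axis, number of genes under each bin); orange points are 1 week medians and purple squares 3 week medians with quartiles. Only the bin above 4 has a 3 week median well away from 0, at 0.86.

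The genes still raised at 3 weeks included 6 of 18 tested secreted cytokine genes, 5 of 16 chemokine genes and 9 of 20 inflammatory enzymes and defence proteins. Over all tested genes the share was 0.426%. Of the 59, 36 are on some list described below, and these lists hold 772 distinct genes beside 13842 tested ones. The lists were chosen with earlier results of these data known, so this membership is a description only. Apart from Scd1, 58 of the 59 were raised at both times. In all 58 the level at 3 weeks of hypergravity was below that at 1 week, and the direct comparison of the hypergravity groups called the difference. Among the 45 reduced genes with counts in all groups above a floor of 3 counts, the median response was 6.02 at 1 week and 2.19 at 3 weeks. The 3 week log2 response amounted to 39.1% of the 1 week log2 response at the median, with a range of 13.4 to 67.3%. The number of reduced genes was 104 without control replicate 3, 28 without either 3 week control and 29 without replicate 1 of the 3 week hypergravity group. The controls of both sets also differed by test in 11 of the 47 genes, against 549 of all genes (3.97%), of which 1.55% of all genes were higher and 2.41% lower in the 3 week set. That number of 549 itself was 3222 without control replicate 3, 306 without control replicate 2, 39 and 91 without replicate 1 or 2 of the 3 week controls, and 350 and 349 without replicate 1 or 2 of the 3 week hypergravity group.

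Saa3, an acute phase protein gene of macrophages (chromosome 7, 46711998 to 46715700, mm10), kept the largest 3 week response of the reduced genes. It stood at 4.39, 2.62 and 2.92 CPM in the undated controls, 17870 and 17217 CPM after 1 week at 15 G, 2.55 and 2.93 CPM in the 3 week controls, and 606.7 and 458.6 CPM after 3 weeks. Both hypergravity groups lay far above all controls, and they did not overlap each other. The response went from 12.59 to 7.64 on the log2 scale, a difference of -4.95 ± 0.33 (SE, edgeR adjusted p = 2.86e-06).

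Cytokine genes made up several of the others. Il1b, which encodes the fever-inducing cytokine interleukin 1 beta (chromosome 2, 129364570 to 129371139), had 2.66 to 3.43 CPM in the undated controls, 1502 and 1379 CPM at 1 week, 2.31 and 3.47 CPM in the 3 week controls, and 222.3 and 173 CPM at 3 weeks. Its response difference was -2.98 ± 0.28 (adjusted p = 2.15e-05), and it kept 67.3% of its log2 response. That was the smallest loss among the 8 reduced genes named for the largest 3 week responses, though Nfkbia, a reduced gene named through a list, lost less (-2.37). Il1a, the partner cytokine gene, reached 609.8 and 615.3 CPM at 1 week and 50.2 and 40.1 CPM at 3 weeks, against at most 2.17 CPM in any control. The cytokine gene Il12b was at or below 0.101 CPM in all 5 controls, at 324 and 311 CPM at 1 week, and at 3.96 and 3.43 CPM at 3 weeks. Without replicate 1 of the 3 week controls the fitted difference of Il12b was -2.90 (adjusted p = 0.918).

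The neutrophil-attracting chemokine genes Cxcl2 and Cxcl1 were both still raised at 3 weeks. Cxcl2 (chromosome 5, 90903871 to 90905938) went from 3.54 to 5.29 CPM in the undated controls to 2938 and 2846 CPM, and in the 3 week set from 2.26 and 1.94 CPM to 185 and 145.7 CPM (difference -3.28 ± 0.27, adjusted p = 9.5e-06). For Cxcl1 the hypergravity libraries held 512 and 480 CPM at 1 week and 21 and 17 CPM at 3 weeks, with at most 1.64 CPM in any control (-3.23 ± 0.74, adjusted p = 0.0057). That difference became -2.12 (adjusted p = 0.22) without replicate 2 of the 3 week controls. In the control comparison Cxcl2 was lower in the 3 week set (log2 -1.12, adjusted p = 0.019).

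Enzymes of the activated state followed. Acod1, which makes the antibacterial metabolite itaconate, held 4002 and 3980 CPM at 1 week and 275.4 and 208.3 CPM at 3 weeks, against 3.44 to 11.9 CPM in controls (-3.51 ± 0.47, adjusted p = 0.000216). Ptgs2, the inducible prostaglandin synthase (chromosome 1, 150100031 to 150108227), lost more: 4286 and 4466 CPM at 1 week against 18.3 and 12.8 CPM at 3 weeks, with 1.99 to 6.85 CPM in the undated and 0.884 to 0.943 CPM in the 3 week controls (-6.24 ± 0.85, adjusted p = 0.000249). Nos2, the inducible nitric oxide synthase gene (chromosome 11, 78920787 to 78960254), had 1186 and 1353 CPM at 1 week and 6.82 and 5.52 CPM at 3 weeks, but its 3 week controls were at 0.0982 CPM and 0. The fitted difference for Nos2 (-5.48 ± 1.88, adjusted p = 0.0381) rests on that near-zero group, and it became -2.23 (adjusted p = 0.898) without replicate 1 of the 3 week controls. Each of these genes was higher in the 3 week hypergravity libraries than in any control library.

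Of the 11 genes with no called difference, 6 had a group at or near the floor, so their fitted difference has no use and levels are given instead. Il6, which encodes the cytokine interleukin 6 (chromosome 5, 30013114 to 30019981), had 0, 0.0545 and 0.101 CPM in the undated controls, 321.1 and 293.4 CPM at 1 week, 0 in both 3 week controls, and 9.86 and 8.66 CPM at 3 weeks. That is at least 126.2-fold above the 3 week controls, taking 3 counts over the control group as the floor, while the level at 3 weeks of hypergravity was 33.2-fold below that at 1 week. Csf3, the gene of the granulocyte growth factor G-CSF (chromosome 11, 98701263 to 98703629), was at 0 in all 5 controls, at 267.1 and 255.5 CPM at 1 week, and at 1.28 and 0.988 CPM at 3 weeks. It was at least 6011-fold above its controls at 1 week and at least 15.6-fold above them at 3 weeks, and the hypergravity groups themselves differed by 230.7-fold. Il12a, a subunit gene of interleukin 12, had 25.5 and 25.1 CPM at 1 week and 1.1 and 0.872 CPM at 3 weeks, with 0 in the 3 week controls and 0.192 to 0.599 CPM in the undated ones. Shisa3 and Susd2, genes of membrane proteins, and U90926, a transcript named here after its values were seen, had the same pattern, with 25, 11.5 and 47.6 CPM in replicate 1 at 1 week and 0.704, 2.2 and 1.1 CPM in replicate 1 at 3 weeks. In these 6 genes the absence of a called difference therefore goes with a loss of level of 7.83-fold or more where a ratio was computed.

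The other 5 genes had counts in every group. Cav1, which encodes caveolin 1, the coat protein of membrane pits called caveolae (chromosome 6, 17306335 to 17341452), had 1.22 to 1.76 CPM in the undated controls, 49.8 and 43.7 CPM at 1 week, 0.688 and 0.893 CPM in the 3 week controls, and 24.7 and 21.9 CPM at 3 weeks. Its response was 5.24 at 1 week and 4.91 at 3 weeks, a difference of -0.33 ± 0.30 with a 95% interval of -1.01 to 0.35 (adjusted p = 0.422). The level itself was 2.01-fold lower at 3 weeks than at 1 week of hypergravity, and the direct comparison called that fall (log2 -1.27, adjusted p = 4.65e-05). Cav1 is the clearest case of a response that was not measurably smaller at 3 weeks.

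Olr1, the receptor gene for oxidised low-density lipoprotein, had responses of 5.76 and 5.06 (difference -0.70, interval -2.44 to 1.05, adjusted p = 0.502). Ly6i and, named after its values were seen, Ly6c2 belong to the Ly6 family of small surface proteins, whose members are similar enough that reads may be shared between them. Ly6i had responses of 4.93 and 4.89 (interval -1.75 to 1.68), and the sign of its near-zero difference turns with the scaling. Its controls also differed between the sets, from 0.673 to 1.61 CPM in the undated to 0.0982 and 0.0993 CPM in the 3 week controls (log2 -3.29, adjusted p = 0.0172). The level of Ly6i fell between the hypergravity groups (log2 -3.32, adjusted p = 4.22e-06). Ly6c2, a marker of inflammatory monocytes, had 6.81 to 11.8 CPM in the undated controls, 41.4 and 35.7 CPM at 1 week, 1.42 and 1.24 CPM in the 3 week controls and 8.59 and 7.03 CPM at 3 weeks. Its 3 week hypergravity level thus lay within the range of the undated controls, and its controls differed between the sets (log2 -2.94, adjusted p = 0.00094). Epha4, an ephrin receptor gene and also named after its values were seen, had responses of 3.71 and 2.54 (interval -2.47 to 0.14, adjusted p = 0.134). These intervals allow losses of up to 2.47 on the log2 scale, so equal responses are not shown.

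**Figure D3:**
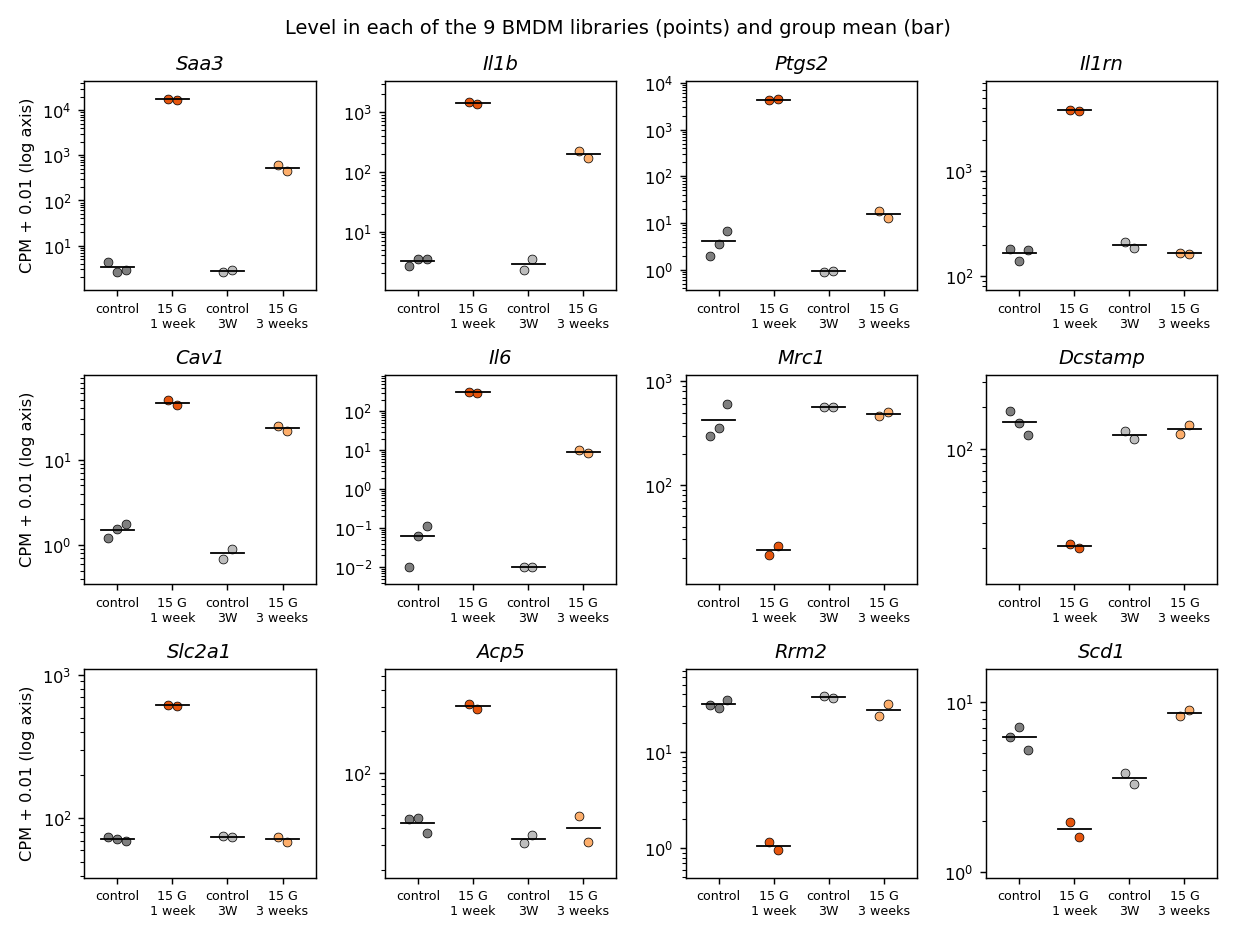
CPM plus 0.01 on a log y axis for 12 genes in the undated controls, 1 week at 15 G, 3 week controls and 3 weeks at 15 G (x axis); points are libraries and bars are group means. Saa3, Il1b, Ptgs2, Cav1 and Il6 stay above their controls at 3 weeks, whereas Il1rn, Slc2a1, Mrc1, Dcstamp, Acp5 and Rrm2 lie at or near control level; Scd1 is below its controls at 1 week and above them at 3 weeks.

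Promoter sequences are shown for this group because it holds classical NF-kB target genes. RefSeq gives a 300-base promoter (250 bases before to 50 after the start, GRCm38.p6) for 39 of the 47 reduced genes, 8 of the 11 genes with no called difference, and 9830 of the 13842 tested genes. A reduced form of the NF-kB motif (3 G, 2 bases of any kind, 3 T and 2 C) was searched on both strands. They occurred in 5 of 39 reduced promoters (12.8%) and in 1 of 8 promoters of the genes with no called difference (12.5%), against 2 of 113 (1.77%) in faded genes raised by more than 4 on the log2 scale at 1 week, 12 of 380 (3.16%) in those raised by 2 to 4, and 1.8% of all tested genes. The AP-1 letters TGANTCA, by contrast, were found in 5 of 39 reduced promoters, 2 of 8 and 22 of 113 (19.5%) against 5.43% of all tested genes. NF-kB was not alone in its pattern: the ATF4 element was in 4 of 39 (10.3%), 0 of 8 and 1 of 113 (0.88%), against 2.36%. The interferon element was in 3 of 39 (7.69%), 0 of 8 and 8 of 113 (7.08%), against 3.27%. No test was made of these shares, and a match is not evidence of binding. The 30 bases around each NF-kB match follow, on the strand of the gene, with the matched letters or their reverse complement in capitals.
Cxcl1 (chr5:90891164-90891193, plus): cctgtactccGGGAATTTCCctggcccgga
Cxcl1 (chr5:90891146-90891175, plus): ccggttgcagGGAAACACCCtgtactccgg
Cxcl2 (chr5:90903792-90903821, plus): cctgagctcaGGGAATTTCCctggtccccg
Cxcl2 (chr5:90903811-90903840, plus): cctggtccccGGGCTTTTCCagacatcgtg
Gbp5 (chr3:142496847-142496876, plus): ggagaggaaaGGAAATTCCCagggctggcc
Marco (chr1:120505035-120505064, minus): gggacatggaGGGTCTTTCCcaaacttctt
Nfkbia (chr12:55492657-55492686, minus): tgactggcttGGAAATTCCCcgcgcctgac
Il6 (chr5:30013060-30013089, plus): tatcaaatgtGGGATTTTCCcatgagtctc
Cxcl1 and Cxcl2 each hold a pair of matches and share the core GGGAATTTCC, which starts 71 and 97 bases before their starts. Gbp5, an interferon-induced GTPase gene, was named by its match.

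The whole Il6 promoter is printed because it holds both motifs, with the AP-1 letters at its far end and the NF-kB letters near the start in capitals. The promoters of Il12a, another gene still called at 3 weeks, and of Saa1, whose 1 week response faded, hold none of the motifs searched and carry no capitals.
Il6 (chr5:30012864-30013163, plus): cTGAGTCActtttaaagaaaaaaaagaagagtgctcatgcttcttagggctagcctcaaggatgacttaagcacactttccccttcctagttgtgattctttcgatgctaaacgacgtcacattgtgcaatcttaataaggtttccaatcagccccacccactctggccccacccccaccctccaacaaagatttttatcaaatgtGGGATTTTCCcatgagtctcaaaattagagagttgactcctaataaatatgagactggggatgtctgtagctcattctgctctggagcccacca
Il12a (chr3:68690394-68690693, plus): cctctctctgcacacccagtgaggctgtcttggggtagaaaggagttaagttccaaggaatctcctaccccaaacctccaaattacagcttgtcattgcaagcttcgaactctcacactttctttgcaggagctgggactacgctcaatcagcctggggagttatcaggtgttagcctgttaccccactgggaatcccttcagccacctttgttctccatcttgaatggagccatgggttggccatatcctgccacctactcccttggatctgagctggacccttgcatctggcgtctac
Saa1 (chr7:46742931-46743230, minus): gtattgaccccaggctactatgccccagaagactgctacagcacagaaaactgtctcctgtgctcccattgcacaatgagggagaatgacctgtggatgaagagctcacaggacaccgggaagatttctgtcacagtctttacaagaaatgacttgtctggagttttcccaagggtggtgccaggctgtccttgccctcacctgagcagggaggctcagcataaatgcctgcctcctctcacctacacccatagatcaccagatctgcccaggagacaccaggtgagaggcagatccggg

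Most members of the inflammatory lists had a called negative difference. For these and all later lists, 21.9% of all tested genes were positive and 21.5% negative. At 3 weeks only 0.426% of all genes were called, so a list with none called is not set apart by that. Of 18 secreted cytokine genes, 13 had a called negative difference and 5 none, with a median difference of -3.69 where all tested genes have 0.016. The 5 were Il6, Il12a, Csf3, Il23a and Csf2, the last pair named after their values were seen. Il1rn, the gene of the interleukin 1 receptor antagonist (chromosome 2, 24336853 to 24351494), gave the smallest p: 138.7 to 182.3 CPM in the undated controls, 3848 and 3802 CPM at 1 week, 211.8 and 183.4 CPM in the 3 week controls, and 165.9 and 162.4 CPM at 3 weeks. Its difference was -5.02 ± 0.19 (adjusted p = 1.73e-07), and the 3 week hypergravity libraries lay just below their controls. At 3 weeks the agonist gene Il1b was called and this antagonist gene was not, with responses of 6.13 and -0.23. Il27 (-4.78) and Tnfsf9 (-4.13), another pair of cytokine genes, also faded.

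Chemokine genes divided in the same way. Of 16 tested, 12 had a called negative difference, Ccl6 a positive one and 3 none (median -3.41), and 5 were still called higher at 3 weeks. Ccl3 held 1339 CPM on average at 1 week and 117 CPM at 3 weeks, against 29.9 and 36.8 CPM in the respective controls (-4.05 ± 0.15, adjusted p = 1.73e-07). Ccl2 and Ccl7, which attract monocytes, faded fully, from 222 and 95.8 CPM at 1 week to 20.4 and 4.7 CPM at 3 weeks, with 30.2 and 5.97 CPM in the 3 week controls. Among 20 inflammatory enzymes and defence proteins, 18 had a negative difference, Mmp12 a positive one and Cfb none (median -3.74). Of this list 9 genes stayed called at 3 weeks, more than on any other list, among them the protease inhibitor gene Slpi (7.23 to 3.01) and the haemoglobin-binding protein gene Hp (5.02 to 1.26). The controls of both sets differed by test in 7 of the 16 chemokine genes and 7 of these 20, with Slpi (log2 -1.47) and Hp (-1.19) among the latter. The 3 week hypergravity libraries of Hp (32.7 and 24.6 CPM) lay near its undated controls (23.9 to 30.1 CPM). Its 3 week controls were at 10.6 and 14 CPM.

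Nearly all genes of NF-kB subunits and of its negative feedback inhibitors had a smaller response at 3 weeks. Of 27 NF-kB subunits and inhibitors, 26 had a negative difference and Cish none (median -2.28), and 3 were still called at 3 weeks. Nfkbia, the inhibitor that holds NF-kB in the cytoplasm, stood at 378 CPM at 1 week and 78.5 CPM at 3 weeks, against 51.1 and 47 CPM in controls (responses 3.15 and 0.78; difference -2.37 ± 0.13, adjusted p = 1.18e-06). The ubiquitin-editing inhibitor gene Tnfaip3 went from a response of 4.13 to 0.64 and the RNase gene Zc3h12a from 3.47 to 0.44, and both were no longer called. Of 26 AP-1 and immediate early genes, 17 had a negative, 4 a positive and 5 no called difference, and none was called at 3 weeks. Maff, a small Maf factor gene, fell from a response of 6.16 to 0.36, whereas Fos, Egr2, Klf2 and Myc had been below control at 1 week and rose again.

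Receptors for microbes and cytokines moved both ways. Of 29 tested, 18 had a negative and 5 a positive difference (median -1.36), and 4 were called at 3 weeks. Clec4e, the receptor Mincle for mycobacterial glycolipid, held 5561 and 5363 CPM at 1 week, 311.5 and 252.2 CPM at 3 weeks, and 8.45 to 14 CPM in controls (-4.50 ± 0.26, adjusted p = 1.37e-06). Marco, a scavenger receptor for bacteria, went from 961.3 and 865.9 CPM to 87.5 and 86.7 CPM, but its 3 week controls (15.8 and 13.9 CPM) were above the undated ones (3.98 to 6.38 CPM; log2 1.58, adjusted p = 0.0018). Clec7a, the beta-glucan receptor Dectin-1, ran the other way, from 85.4 CPM at 1 week to 658 CPM at 3 weeks with 808 and 630 CPM in controls (3.08 ± 0.14, adjusted p = 6.31e-07).

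Interferon-stimulated genes faded with hardly any exception. Of 30, 28 had a called negative difference and Oas2 and Igtp none (median -2.38), and 1 was called at 3 weeks. Oasl1, a sensor of viral RNA, had 589.5 and 591 CPM at 1 week and 7.44 and 6.33 CPM at 3 weeks. In 16 of the 30 genes the controls differed between sets (median of the list -0.87), as for Oasl1, with 23.5 to 31.4 CPM in the undated and 5.75 and 10.3 CPM in the 3 week controls. In a direct comparison of both hypergravity groups the list's median was therefore larger, at -3.44. Irf1 (-2.32), Gbp3 (-3.04) and Bst2 (-2.02) faded as well, with 3 week responses of 0.25, 0.75 and -0.24 that were not called. Gbp3 was not back at control level, with 42 and 42.5 CPM at 3 weeks of hypergravity against 24.5 and 27 CPM in its controls.

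**Figure D4:**
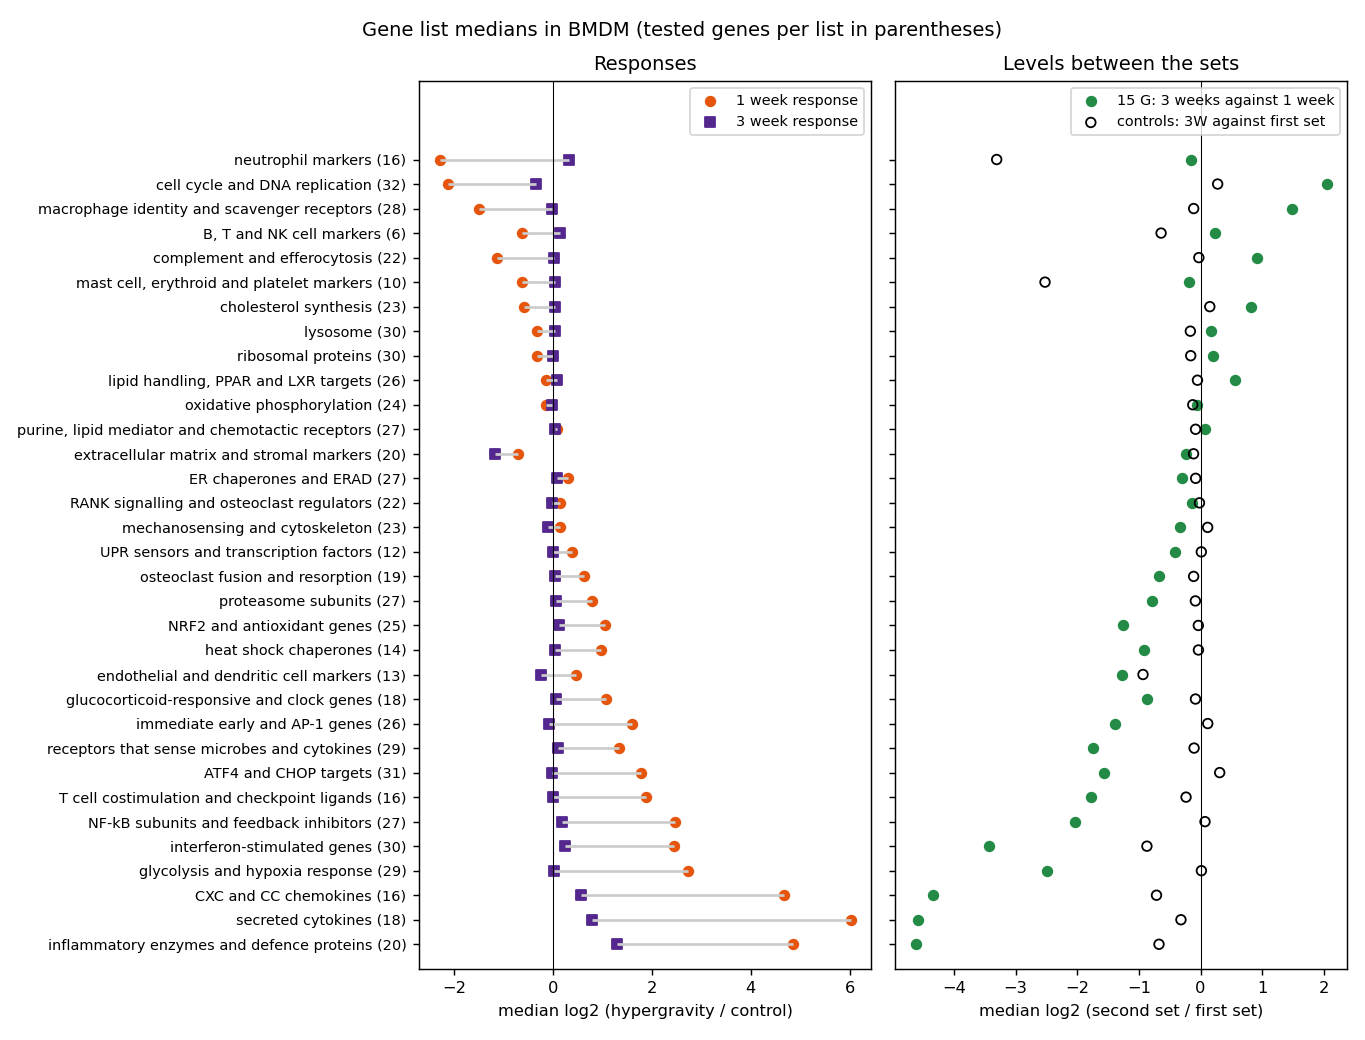
Left, the median 1 week (circles) and 3 week (squares) log2 response of each gene list; right, the median log2 change of level from the first to the second set in hypergravity (filled) and control (open) libraries. Cytokine, chemokine and enzyme lists keep 3 week medians of 0.57 to 1.29, matrix and stromal markers have -1.16, most others lie near 0, and neutrophil and mast cell, erythroid and platelet markers stand out on the right because their control medians are -3.31 and -2.52.

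The largest single differences belonged to genes that were nearly off in a group. Gpr34, a lysophosphatidylserine receptor gene of macrophages and microglia (chromosome X, 13632089 to 13640858), was at 4.77 to 6.9 CPM in the undated controls, at 0 in both 1 week hypergravity libraries, at 4.42 and 4.81 CPM in the 3 week controls, and at 6.82 and 7.21 CPM after 3 weeks. It was at least 103.3-fold lower than control at 1 week and not called at 3 weeks. Gabbr2, a GABA receptor subunit gene, was likewise at 0 at 1 week, at least 83-fold lower than its controls. Slc46a3, a lysosomal transporter gene, had 0.951 and 1.18 CPM at 1 week and 88.7 and 82.3 CPM at 3 weeks, with 78.4 to 114.7 CPM in controls (6.42 ± 0.22, adjusted p = 1.71e-07). Slco2b1, Gprc5c, Smpd3, Abca6, Asb4 and Dkk2 had the same course, with at most 0.501 CPM in any 1 week hypergravity library, and so did the neutrophil granule gene Mpo, which is taken up again with the controls.

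In the negative direction, Hcar2, the receptor gene for niacin and ketone bodies, had 393.3 and 351.6 CPM at 1 week and 2.42 and 2.56 CPM at 3 weeks, inside its control range of 1.54 to 4.08 CPM (-6.73 ± 0.34, adjusted p = 8.08e-07). Slamf1, a receptor of T cells and activated phagocytes, had 87.7 and 88.7 CPM at 1 week and at most 0.291 CPM at 3 weeks. Saa1 was at 0 in the undated controls, at 7.66 and 7.03 CPM at 1 week and at or below 0.044 CPM at 3 weeks. It was at least 168.1-fold raised at 1 week, although reads may be shared with its close copies. Ptgs2os, whose annotated start lies next to that of Ptgs2 and which runs away from it on the other strand, was at least 127-fold raised at 1 week. Ptgs2os2 was named by the same rule. Klri1, Clic5, Rnf225 and Adm had the same course. Without a single 3 week control library the differences of Slamf1 (-5.14), Saa1 (-8.16), Ptgs2os (-6.94), Klri1 (-3.30), Rnf225 (-3.08) and Adm (-4.42) were no longer called, each with an adjusted p of at least 0.125. The same course held for Egln3, an oxygen-sensing hydroxylase gene, with 98.8 and 102 CPM at 1 week and 1.63 and 1.8 CPM at 3 weeks.

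Egln3 belongs to the hypoxia and glycolysis programme, which had been raised as a whole at 1 week and was back at control level at 3 weeks. Of 29 tested genes, 28 had a called negative difference and Pdk1 none (median -2.65). The list's median was 0.03 for the 3 week response and 0.01 between the controls. None was called in either comparison, where only 0.426% and 3.97% of all tested genes were called. Slc2a1, the glucose transporter GLUT1 (chromosome 4, 119108711 to 119137983), had 69.5 to 74.2 CPM in the undated controls, 616.8 and 606.4 CPM at 1 week, 75.1 and 74 CPM in the 3 week controls, and 74.2 and 69 CPM at 3 weeks (-3.37 ± 0.12, adjusted p = 1.73e-07). Only the 1 week hypergravity libraries of Slc2a1 stand apart from the other 7. The lactate exporter gene Slc16a3 (-3.89), the hexokinase gene Hk1 (-2.76) and the ER oxidase gene Ero1l (-3.96) had the same course. Of 24 oxidative phosphorylation genes, by contrast, 19 had no called difference, 2 a positive and 3 a negative one (median 0.13). Without control replicate 3 that list had 9 positive and 5 negative calls.

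Stress genes in the ATF4 branch also faded. ATF4 is the transcription factor made when translation is slowed by stress kinases, and of 31 tested ATF4 and CHOP targets 25 had a negative difference, Cebpg a positive one and 5 none (median -1.71). Ppp1r15a, which restores translation, had a response of 3.70 at 1 week and 0.24 at 3 weeks (-3.46 ± 0.15, adjusted p = 4.04e-07). The cystine transporter gene Slc7a11 was the exception that remained called: 604.8 and 762.3 CPM at 1 week, 85.5 and 75.7 CPM at 3 weeks, and 22 to 40.1 CPM in controls (-3.37 ± 0.32, adjusted p = 2.28e-05). Atf4 itself had 555.4 and 509.4 CPM at 1 week and 183.2 and 190 CPM at 3 weeks, within the control range of 158.3 to 207.1 CPM (-1.84 ± 0.18, adjusted p = 2.77e-05), and Ddit3, which encodes CHOP, had a difference of -1.02 ± 0.18 (adjusted p = 0.00108).

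The list of UPR sensors and factors, which holds Atf4 and Ddit3, had called differences of both signs. Of 12 tested, 6 had a negative, 3 a positive and 3 no called difference. Xbp1, the factor activated by splicing, had 116.2 to 143.5 CPM in all 9 libraries and a difference of 0.01 with an interval of -0.32 to 0.34 (adjusted p = 0.957). Ern1, the gene of the splicing sensor IRE1, had -1.85 ± 0.53 (adjusted p = 0.0177), but control replicate 3 (31.9 CPM) stood apart from the other undated controls (11.8 and 13 CPM). The call of Ern1 was lost under 5 alternatives, among them without replicate 2 at 1 week of hypergravity (-1.49, adjusted p = 0.0773), replicate 1 of the 3 week controls (0.0556) and either 3 week hypergravity library (0.0574 and 0.0654). The ER chaperone gene Hspa5, which encodes BiP, had 1572 and 1406 CPM at 1 week and 816.1 and 824 CPM at 3 weeks, with 769.2 to 891.5 CPM in controls (-0.97 ± 0.13, adjusted p = 0.000287). Among 27 ER chaperones and degradation genes, 9 had a negative, 3 a positive and 15 no called difference. Over all tested genes 43.4% had a called difference, 21.5% negative and 21.9% positive, so the ER list is not set apart by its number of calls. The list's median of -0.20 becomes 0.02 with scaling by library totals. Of 14 heat shock chaperones 10 had a negative difference, led by Hsp90aa1 (-1.95), and of 27 proteasome subunits 19 did (medians -0.91 and -0.67), with none called at 3 weeks on any of these lists.

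Antioxidant genes kept a small remainder. Of 25 NRF2 and antioxidant genes 14 had a negative and 4 a positive difference (median -0.75), and 2 were called at 3 weeks, Slc7a11 and Sod2. Sod2, the mitochondrial superoxide dismutase and a known NF-kB target, had 1598 CPM at 1 week and 148 CPM at 3 weeks against 78.7 and 73.3 CPM in controls (responses 4.61 and 1.05). Hmox1, which degrades haem, had 7575 and 7324 CPM at 1 week and 1024 and 964.3 CPM at 3 weeks. The latter lie above all 5 controls (730.2 to 914.5 CPM), but the 3 week response of 0.41 was not called.

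Proliferation genes had the opposite course. Of 32 cell cycle and DNA replication genes, 27 had a positive difference, Ccne1 and Cdt1 a negative one and 3 none (median 1.79). Rrm2, a ribonucleotide reductase subunit needed for DNA synthesis (chromosome 12, 24708241 to 24714146), had 28.5 to 34.9 CPM in the undated controls, 1.15 and 0.939 CPM at 1 week, 38.5 and 36.9 CPM in the 3 week controls, and 23.9 and 31.7 CPM at 3 weeks (4.26 ± 0.25, adjusted p = 1.52e-06). Ccna2, encoding cyclin A2, behaved alike (4.29 ± 0.28, adjusted p = 2.68e-06). Both genes lay below their controls at 3 weeks, with responses of -0.41 each that were not called, and the list's 3 week median was -0.34. In bulk RNA, fewer cells of a type and less RNA per cell cannot be told apart. Of 30 ribosomal protein genes 4 had a positive difference and 26 none (median 0.36), and the number was 24 without control replicate 3.

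Genes of the resting macrophage had been lowered at 1 week and were near control level at 3 weeks. Of 28 identity and scavenger receptor genes, 20 had a positive difference, Adgre1 a negative one and 7 none (median 1.47), and none was called at 3 weeks. Mrc1, the mannose receptor (chromosome 2, 14229392 to 14332057), had 300.3, 359.6 and 611.5 CPM in the undated controls, 21.2 and 26 CPM at 1 week, 571.6 and 567.5 CPM in the 3 week controls, and 461.5 and 504.2 CPM at 3 weeks (3.69 ± 0.37, adjusted p = 3.34e-05). Ccr2, the monocyte chemokine receptor gene, had 0.801 and 1.48 CPM at 1 week and 33.7 and 45.6 CPM at 3 weeks, with 51.2 to 61.4 CPM in controls (4.84 ± 0.29, adjusted p = 1.55e-06). The haemoglobin scavenger receptor gene Cd163 had a difference of 6.08 ± 1.23, but control replicate 3 alone held 52.9 CPM where the other 4 controls had 9.93 to 12.9 CPM. Csf1r, the M-CSF receptor gene, had no called difference (0.32).

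Complement and efferocytosis genes followed the same course with a few members against it, and lysosomal genes were more divided. Of 22 complement and efferocytosis genes 14 had a positive and 3 a negative difference (median 1.22), the 3 being the transglutaminase gene Tgm2 (-3.71), Cd300lf and the nucleotide receptor gene P2ry2 (-2.71). Of 30 lysosomal genes 13 were positive, 6 negative and 11 not called (median 0.38), against 21.9% positive and 21.5% negative over all tested genes. With scaling by library totals 20 lysosomal genes were positive and 4 negative. Ctsd, the abundant protease cathepsin D, had 6096 and 5658 CPM at 1 week and 15474 and 14043 CPM at 3 weeks, with 14426 to 16379 CPM in controls (1.21 ± 0.13, adjusted p = 4.9e-05). Of 23 cholesterol synthesis genes 11 were positive and 3 negative (median 0.66), with Dhcr7 at 2.11 and Hmgcs1 at 1.65. Of 26 genes of lipid handling 11 were positive, 3 negative and 12 not called (median 0.19). Pparg, the lipid-sensing nuclear receptor gene, rose from 9.18 CPM at 1 week to 84.2 CPM at 3 weeks against 104 and 90.9 CPM in controls (3.16 ± 0.17), whereas Acsl1, a fatty acid activating enzyme gene, remained raised (responses 3.99 and 1.23).

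Osteoclast genes did not move as a block. Of 19 tested fusion and resorption genes, 10 had a negative, 4 a positive and 5 no called difference (median -0.65), and none was called at 3 weeks. Acp5, the tartrate-resistant acid phosphatase that marks osteoclasts (chromosome 9, 22126727 to 22135711), had 37 to 47.4 CPM in the undated controls, 315.6 and 291.3 CPM at 1 week, 31.5 and 35.6 CPM in the 3 week controls, and 49 and 31.8 CPM at 3 weeks (-2.75 ± 0.27, adjusted p = 2.93e-05). At 3 weeks Acp5 overlapped its controls. Dcstamp, the membrane protein required for cell fusion (chromosome 15, 39745930 to 39760938), ran against it: 21.3 and 20 CPM at 1 week and 128.9 and 149.1 CPM at 3 weeks, with 119.1 to 188 CPM in controls (2.82 ± 0.25, adjusted p = 1.52e-05). The collagenase gene Ctsk had a difference of -0.44, called in the fit of these 9 libraries but not under 10 of 18 alternatives.

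Regulators upstream of these genes were divided too. Of 22 genes of RANK signalling 10 were negative and 8 positive, and the median of -0.21 becomes 0.01 with scaling by library totals. Nfatc1, the master factor of osteoclast formation, and Tnfrsf11a, which encodes the receptor RANK, had positive differences of 1.06 and 0.92. Trem2, a lipid receptor that aids fusion (chromosome 17, 48346401 to 48354147), had 113.5 and 96.3 CPM at 1 week and 1041 and 1015 CPM at 3 weeks, with 825.9 to 1159 CPM in controls (3.11 ± 0.23, adjusted p = 4.95e-06). The gene Id2, an inhibitor of differentiation factors, had -2.45 ± 0.17.

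Scd1, which desaturates fatty acids (chromosome 19, 44394455 to 44407879), was the single gene called in opposite directions. It stood at 6.22, 7.09 and 5.24 CPM in the undated controls, 1.95 and 1.61 CPM at 1 week, 3.83 and 3.28 CPM in the 3 week controls, and 8.23 and 9.01 CPM at 3 weeks. The response was -1.55 ± 0.21 at 1 week and 1.31 ± 0.21 at 3 weeks (adjusted p = 0.0295), and the difference was 2.86 ± 0.30 (adjusted p = 4.69e-05). The controls differed as well, with the 3 week set lower by test (log2 -0.84, adjusted p = 0.0475). No gene was in this class when either 3 week control or either 3 week hypergravity library was left out, and 8 were without control replicate 3, whereas the difference itself was called under all 18 alternatives.

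A further 63 genes had a called difference with no called response at either time, and 22 of them reached a group mean of 5 CPM. The controls differed between sets in 11 of the 63. Timp3, an inhibitor of matrix proteases (chromosome 10, 86300372 to 86349506), had 9.97 to 16.1 CPM in the undated controls, 13.3 and 17.6 CPM at 1 week, 1.72 and 2.23 CPM in the 3 week controls, and 0.793 and 0.697 CPM at 3 weeks (-1.82 ± 0.42, adjusted p = 0.00573). Its libraries separate by set, and by hypergravity within the 3 week set alone, and the control difference (log2 -2.81) was larger than either response. Adam19, a membrane protease gene (chromosome 11, 46055992 to 46147343), had 3.27, 7.09 and 9.63 CPM in the undated controls, 2.75 and 3.88 CPM at 1 week, 6.34 and 7.44 CPM in the 3 week controls and 18.7 and 11.2 CPM at 3 weeks (1.86 ± 0.58, adjusted p = 0.0257). Its call was lost under 6 of 18 alternatives, with the lowest value, 1.44 (adjusted p = 0.112), without replicate 1 of the 3 week hypergravity group. Ly6a (-1.78), the dioxin-inducible oxidase gene Cyp1b1 (-1.54), the progenitor marker Cd34 (-1.04), Ly6e (-1.01) and Lins1 (-0.98) had negative differences, and Ahrr, a repressor of the dioxin receptor, a positive one of 0.96 (adjusted p = 0.0499).

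Levels in the 2 control sets bear on the genes above, since the response difference contains their difference. Of the 6008 genes with a called response difference, 344 (5.73%) also had a called control difference, against 3.97% of all genes. Neutrophil genes were the clearest case. Of 16 tested neutrophil markers 8 had a positive response difference, Csf3r a negative one and 7 none (median 2.61). Yet 14 of the 16 differed between the controls (median -3.31), and their median in the direct comparison of the hypergravity groups was -0.15. Their summed level was 499.7 to 906.9 CPM in the undated controls, 467.2 to 493.7 CPM at 1 week of hypergravity, 138.2 to 180.9 CPM in the 3 week controls and 179.7 to 226.8 CPM at 3 weeks. These sums therefore separate by set more than by hypergravity. Gene by gene, however, 11 of the 16 were called lower and 1 higher at 1 week, with a median response of -2.29. Over all tested genes 30.8% were called lower at 1 week. None of the 16 was called at 3 weeks. The part of granulocyte precursors in this was not tested.

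Single granule genes also differed between the control sets, but Mpo and Elane were lower at 1 week than at 3 weeks of hypergravity. Mpo, the myeloperoxidase gene, had 7.58 to 11.8 CPM in the undated controls, at most 0.0606 CPM at 1 week, 0.884 and 1.04 CPM in the 3 week controls, and 2.07 and 0.639 CPM at 3 weeks. Elane, which encodes neutrophil elastase, had a difference of 5.13 and a control difference of -3.46. Of 18 B, T and NK cell markers 6 were tested, 3 with a positive difference, and Ighm and Gzma were at 0 in all 9 libraries. The summed level of that list was 6.78 to 7.86 CPM at 1 week of hypergravity and 21.2 to 57.4 CPM in every other library. Of 10 tested mast cell, erythroid and platelet markers 7 differed between the controls (median -2.52) and only Cpa3 had a called response difference (5.28, adjusted p = 0.19, without replicate 2 of the 3 week hypergravity group), with Car1 at 0 in all 9 libraries. The platelet integrin gene Itga2b had 14.6 to 32.1 CPM in the first set and 0.291 to 0.969 CPM in the second, and no called response difference. Matrix and stromal markers summed to 142.6 and 153.3 CPM at 1 week of hypergravity, 174.6 and 201.7 CPM at 3 weeks, and 228.6 to 522.5 CPM in controls. Of their 20 tested genes 16 had no called difference and none was called at 3 weeks, with median log2 responses of -0.70 at 1 week and -1.16 at 3 weeks. Of 13 endothelial and dendritic cell markers 5 had a negative and 2 a positive difference. Their summed level was 641.8 to 789.3 CPM in the undated controls, 441.8 to 468.3 CPM at 1 week, 791.9 to 815.4 CPM in the 3 week controls and 676.3 to 715.5 CPM at 3 weeks. What these cells contribute to any response above was not tested.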

How the data were processed

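RNA of 9 BMDM libraries was analysed as raw gene counts, deposited by the authors as 1 column per library and 46095 gene symbols. The submitters' processing notes name HISAT2 2.0.4 and mm10. Which program counted the reads, with which annotation and strand, is not given in the sources used here, so overlapping, antisense and near-identical genes are uncertain.

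The test was that of edgeR 4.0.16 under R 4.3.3 (glmQLFit and glmQLFTest, TMM scaling, filterByExpr, 1 coefficient per group, no covariate, 13842 genes, 5 residual degrees of freedom). A call means a p below 0.05 after Benjamini-Hochberg adjustment over all tested genes, and adjusted p-values come from edgeR throughout. CPM are per raw library total, log2 values follow TMM scaling. TMM factors were 0.853 and 0.868 after 1 week of hypergravity and 1.02 to 1.07 elsewhere, so CPM ratios at 1 week lie below the fitted folds. A floor of 3 counts over a group stood for 0. Depth puts 3 counts at 0.0909 to 0.174 CPM per library, and floors cover counting error only. The script was tested on simulated data.

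The question, the 33 gene lists and the naming rule were chosen with earlier results of these data known. The rule named the 10 largest positive and negative differences, up to 8 genes per class, up to 4 per list by smallest p, and 20 fixed genes, at 5 CPM or more in a group for the first kinds. Exceptions within lists were named after their values were seen. Positions are from GENCODE vM21 and promoters from RefSeq (GRCm38.p6). Besides NF-kB and AP-1, the motifs searched were the interferon element ISRE, the hypoxia element (ACGTG), the E2F site (TTTCCCGC), the cell cycle element CHR (TTTGAA), the cyclic AMP element (TGACGTCA) and the ATF4 element (TGATGNAA), none containing another. Alternatives were other scalings, filters, tools, a log2 bound of 1, a replicate block, all 19 libraries, a comparison without controls, and omission of each library.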

Additional observations from a re-analysis of the deposited data

Results flagged for a closer look

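The responses at both times differed by test in 6008 genes, so the difference between durations, with which the sets are confounded, is itself the main result. Scd1 was called below control at 1 week and above control at 3 weeks (difference 2.86).

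Genes (8 in all) with no called 1 week response were singled out by the size of their difference. Adam19 had a positive difference (1.86), as did Ahrr (0.96). Negative differences were found for Timp3 (-1.82), Ly6a (-1.78), Cyp1b1 (-1.54), Cd34 (-1.04), Ly6e (-1.01) and Lins1 (-0.98). The call of Ahrr was lost under 11 of 18 alternatives, that of Cd34 under 10, that of Lins1 under 7, that of Adam19 under 6, those of Ly6a, Cyp1b1 and Ly6e under 5 each and that of Timp3 under 1. No group holds 4 or more libraries, so single libraries were not tested as outliers.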

How the results depend on the processing

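Among the named genes the response difference kept its direction in most settings. Over 179 named genes and 18 settings, 3018 of 3218 gene values kept direction and call, 170 lost the call, 16 gained it and 14 changed sign. Many of these genes were picked for a large difference or a small p in the same fit, and the settings share libraries. The share of kept values therefore does not extend to all genes. The sign changes were in Ahrr (-0.13) and Il12a (-4.93) when the hypergravity groups were compared without controls; in Ly6i (0.20 with library totals, 0.023 without a filter and with DESeq2, -0.47 to 0.23 without single libraries); and in Xbp1 (-0.0104 with DESeq2 size factors, -0.0065 with DESeq2, -0.10 without controls, -0.083 to 0.12 without single libraries). Leaving out each library gave 4594 to 7705 genes with a called difference (2332 to 3896 positive, 2251 to 3809 negative), 6828 to 9518 called at 1 week, 35 to 138 at 3 weeks (35 to 121 higher, 0 to 17 lower) and 39 to 3222 between controls. The classes ranged from 4536 to 7483 (faded), 28 to 104 (reduced), 7 to 20 (both called, difference not called), 1903 to 3656 (undecided), 0 to 8 (opposite) and 0 to 1 (larger at 3 weeks). With a group of 1 library left, its spread is assumed to match the other groups.

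Against a log2 bound of 1, 1935 genes differed (975 positive, 960 negative), 2830 were called at 1 week, 34 at 3 weeks (34 higher) and 51 between controls. Without a count filter there were 205 calls at 3 weeks (143 higher, 62 lower) and 1476 between controls, with 115 reduced, 47 not called to differ and 19 opposite. DESeq2 gave 94 calls at 3 weeks, 6 lower, and 75 reduced. A fit of all 19 libraries gave 2 lower calls at 3 weeks and 0 opposite genes. The causes were not tested. Same-numbered libraries had deviations correlated at -0.09 to 0.21. In groups of 2 libraries these deviations mirror each other, so the correlations cannot decide if the numbers mark pairs. With the replicate block there were 156 calls at 3 weeks (130 higher, 26 lower), 3140 between controls, 113 reduced, 24 not called to differ and 9 opposite. Depth limits genes near 0, whose fitted differences are not sizes.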

Other observations

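Surface molecules by which macrophages instruct T cells also lost their 1 week change. Of 16 tested costimulation and checkpoint genes, 10 had a negative difference, 4 a positive one and 2 none (median -1.77). Cd274, which encodes the inhibitory ligand PD-L1, averaged 1515 CPM at 1 week and 107 CPM at 3 weeks, against 96.1 and 72.1 CPM in controls (-3.63 ± 0.22, edgeR adjusted p = 1.76e-06). The costimulatory receptor gene Cd40 was still called at 3 weeks (responses 5.99 and 1.68), whereas Vsir, another inhibitory molecule, had been lowered at 1 week and had a positive difference (1.40).

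Receptors for purines, lipid mediators and chemoattractants were split, with 8 positive, 8 negative and 11 without a called difference among 27. Over all tested genes, against which this list and the next ones are to be read, 21.9% were positive and 21.5% negative. Clock and glucocorticoid-responsive genes mostly faded: 10 of 18 had a negative and 3 a positive difference, with Cry1 at -2.76 and Sgk1 at -2.22. Among 23 tested genes of mechanosensing and the cytoskeleton, 15 had no called difference, 7 a negative one, led by the focal adhesion gene Zyx (-1.41), and Lmna a positive one (0.76). Cav1 belongs to the last list and was its only member called at 3 weeks.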
